A study of Mus musculus with 4 samples.

Results

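The dual-specificity phosphatases (Dusp) that dephosphorylate mitogen-activated protein (MAP) kinases were followed in differentiated 3T3-L1 cells, a mouse fibroblast line that can form adipocytes in culture. The deposited expression table was searched by gene symbol for 9 of these genes, Dusp1, Dusp3, Dusp4, Dusp5, Dusp6, Dusp7, Dusp10, Dusp14 and Dusp16, and all 9 were found among its 16051 genes. The set was selected on the measured counts and FPKM values (fragments per kilobase of transcript, scaled to the mapped fragments of the library) of the risperidone and control libraries, with their difference in view. That difference is therefore given for these genes as a description, with no test.

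MAP kinase phosphatases remove phosphate from both the threonine and the tyrosine of the activation loop of ERK, JNK and p38 kinases and so switch them off. Several are themselves products of early response genes that the same kinases induce, which makes them negative feedback regulators. In adipocytes and their precursors, ERK and p38 signalling takes part in differentiation, lipolysis and the response to inflammatory cytokines, and Dusp1 is also a well-known target of glucocorticoids.

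The study asked how risperidone, an atypical antipsychotic, acts on adipocytes. Cells that had been differentiated with isobutyl-methylxanthine, dexamethasone and insulin were then exposed for 48 h to 100 μM risperidone or to its vehicle, dimethyl sulfoxide (DMSO), although the control label itself reads untreated. Each treatment had 2 libraries of this NIH SWISS line. RNA of 3 cultures was combined before a library was made, so that no value measures the spread between single cultures. The estimated counts summed to between 15883712 and 16374119 per library, and a count of 0 at this depth allows up to 3 counts, or 0.183 to 0.189 CPM (counts scaled to library size), counting error only.

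The label of the cells was checked against marker genes. Adipoq, the gene of the adipocyte hormone adiponectin, had between 0 and 1 counts in each library, and of 10 adipocyte markers only Lpl, Fabp4, Cd36 and Pparg passed a mean of 1 FPKM. All 7 markers of preadipocytes and fibroblasts passed it. Of these 7, 4 rose after risperidone, among them Dlk1, which marks preadipocytes (log2 fold change 1.52), and 2 fell, Col3a1 (-0.96) and Pdgfrb (-0.50), in edgeR's quasi-likelihood F-test with Benjamini-Hochberg adjustment (threshold 0.05), which 64.3% of all genes tested passed. Ly6a, another of the 4, had 26 and 24 counts with DMSO and 34 and 74 with risperidone, so that its size rests on the second risperidone library. Of the 4 adipocyte markers Fabp4 (-1.09) and Lpl (-0.24) fell, and Cd36 (0.27) and Pparg (0.12), the gene of the main adipogenic transcription factor, did not pass the test. Fewer cells of one type and less RNA per cell cannot be told apart in these bulk libraries. The second risperidone library also stood apart by transcripts of kidney, with 13 kidney markers summing to 214 FPKM there against 2.19 to 3.23 FPKM in the other 3 libraries. Their part in the values of the phosphatases was not tested, and values without that library are given where they bear on a result.

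All 9 phosphatase transcripts were detected in every library. In 8 of the 9 the FPKM values of the treatments did not overlap, 4 being higher and 4 lower in both risperidone libraries, where 63.4% of all genes in the table did not overlap, 25.4% higher and 38% lower. Among the 10243 genes that were tested, those whose mean reached 1 FPKM, it was 82.2%, with 32.4% higher and 49.8% lower. The share among the phosphatases was used to choose them, so nothing is read from it. The 9 genes split by direction rather than moving together. Dusp1 was far lower with risperidone, Dusp6, Dusp5 and Dusp14 were lower by less, Dusp10, Dusp4, Dusp3 and Dusp16 were higher, and Dusp7 overlapped.

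**Figure D1:**
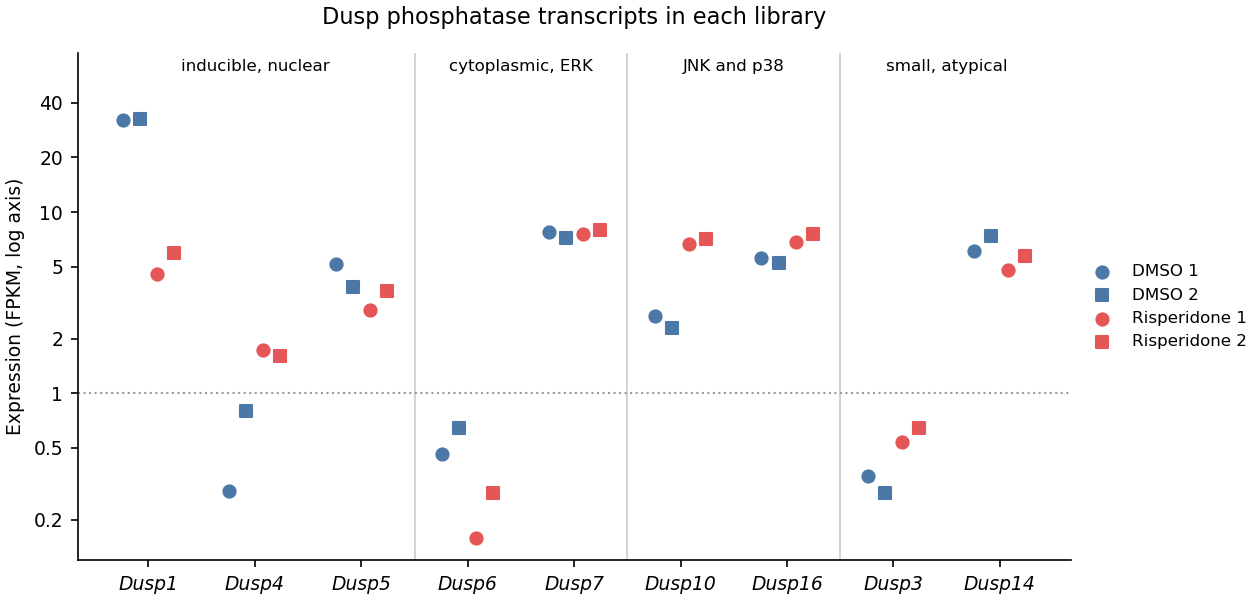
FPKM (log axis) of the 9 Dusp transcripts in the 2 DMSO libraries (blue) and the 2 risperidone libraries (red), where circles are replicate 1, squares are replicate 2 and the dotted line is 1 FPKM. Dusp1 lies above 30 FPKM in both DMSO libraries and below 6 FPKM in both risperidone libraries, and Dusp10 lies at 2.29 to 2.67 FPKM with DMSO and at 6.64 to 7.09 FPKM with risperidone.

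The start regions of 3 of these genes are shown because they are the places where the transcription factors of the early response are known to act. The windows run from 250 bases before to 50 bases after the annotated start, come from RefSeq on GRCm38.p6, the build named in the submitters' processing notes, and were found for 8 of the 9 genes, all but Dusp4. For Dusp3, Dusp7, Dusp14 and Dusp16 the start used is that of a transcript that begins inside the gene coordinates given below, and for the other genes, the printed ones included, it is the start of the gene. Dusp1 had the largest decrease, Dusp10 had the largest increase among the genes with a window, and Dusp5 was chosen after its sequence was seen. Capitals mark matches, on either strand, to the cAMP response element TGACGTCA, its shorter core TGACG, and the CArG box of serum response factor. The AP-1 site TGANTCA and the ETS site CCGGAAGT were searched too and matched none of the 8 windows. Each window is written 5′ to 3′ on the strand of the gene, chr17:26508423-26508722 (minus) for Dusp1, chr19:53528895-53529194 (plus) for Dusp5 and chr1:184034131-184034430 (plus) for Dusp10.
Dusp1: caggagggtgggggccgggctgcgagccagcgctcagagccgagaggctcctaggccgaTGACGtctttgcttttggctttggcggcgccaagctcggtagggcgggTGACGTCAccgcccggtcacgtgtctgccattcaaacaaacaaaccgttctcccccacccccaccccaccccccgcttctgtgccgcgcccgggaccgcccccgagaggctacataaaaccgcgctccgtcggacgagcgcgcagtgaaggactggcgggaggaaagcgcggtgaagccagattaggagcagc
Dusp5: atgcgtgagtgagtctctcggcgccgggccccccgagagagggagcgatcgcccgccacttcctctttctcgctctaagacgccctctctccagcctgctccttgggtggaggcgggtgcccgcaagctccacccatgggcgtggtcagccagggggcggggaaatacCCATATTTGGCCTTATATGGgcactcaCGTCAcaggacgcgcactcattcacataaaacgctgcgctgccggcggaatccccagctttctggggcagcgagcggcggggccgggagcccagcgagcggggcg
Dusp10: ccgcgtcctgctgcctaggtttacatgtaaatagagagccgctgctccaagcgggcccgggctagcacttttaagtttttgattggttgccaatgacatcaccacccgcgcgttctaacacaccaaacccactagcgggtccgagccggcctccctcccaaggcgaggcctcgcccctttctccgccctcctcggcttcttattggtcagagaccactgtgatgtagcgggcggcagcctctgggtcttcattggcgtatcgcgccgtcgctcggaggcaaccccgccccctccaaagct
Dusp1 held a whole cAMP response element at -143 to -136 from the start, which contains a match to the core on each strand, and a further core at -191 to -187. The whole element was in 1.79% and the core in 20.8% of all 32851 windows of this length. Dusp5 held a pair of adjacent CArG boxes at -82 to -73 and -72 to -63, a motif found in 1.63% of all windows, and a core at -55 to -51. Dusp16 held 1 core, and the windows of Dusp3, Dusp6, Dusp7, Dusp10 and Dusp14 matched none of the motifs. For AP-1 and ETS the shares of all windows were 7.81% and 3.89%. These are matches of letters and no measure of binding.

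The inducible nuclear phosphatases diverged from one another. Dusp1 (NCBI Gene 19252, chromosome 17, 26505591 to 26508472), which prefers p38 and JNK, had 952 and 936 counts in the DMSO libraries and 134 and 173 in the risperidone libraries. On the FPKM scale these were 32.2 and 32.6 against 4.55 and 5.96. The DMSO libraries lay close together and far above both risperidone libraries. The log2 fold change of Dusp1, risperidone over DMSO, was -2.53 (standard error 0.0902), a level 5.76-fold lower, and it stayed between -2.73 and -2.35 with any 1 library left out. Without the library that held the kidney transcripts it was -2.73.

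Dusp4 (NCBI Gene 319520, chromosome 8, 34807610 to 34819894), a nuclear phosphatase induced by ERK that acts on ERK and JNK, was scarce and went the other way. It had 11 and 29 counts with DMSO and 65 and 59 with risperidone, or 0.29 and 0.80 FPKM against 1.74 and 1.61 FPKM. Both risperidone libraries were above both DMSO libraries, but the DMSO libraries differed from each other by more than those of any other phosphatase on a log scale. The log2 fold change of Dusp4 was 1.72 (standard error 0.356), 1.17 without the first DMSO library and 2.59 without the second, so its size rests on which DMSO library is used. On the log2(FPKM + 1) and log2(TPM + 1) scales it was 0.81 and 1.001.

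Dusp5 (NCBI Gene 240672, chromosome 19, 53529145 to 53541809), which is specific to ERK and holds it in the nucleus, had 86 and 63 counts with DMSO and 48 and 60 with risperidone. In FPKM these were 5.15 and 3.88 against 2.89 and 3.65, a narrow gap between the lower DMSO and the higher risperidone library. On counts scaled by the trimmed mean of M values (TMM) that gap was lost, with 3.83 CPM in the second DMSO library and 3.84 CPM in the second risperidone library. The log2 fold change of Dusp5 was -0.37 (standard error 0.225), between -0.56 and -0.15 with 1 library left out. It was -0.15 without the first DMSO library, -0.21 without the first risperidone library, -0.54 without the second risperidone library and -0.56 without the second DMSO library. An annotated antisense transcript shares exon sequence with Dusp5, as one does with Dusp3, and without a statement on strand the reads of such partners cannot be told apart. For Dusp1, an upstream exon of a longer GENCODE transcript overlaps an exon of Ergic1 on the other strand, outside the RefSeq gene given above.

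The cytoplasmic phosphatases that are selective for ERK were both present, at very different levels. Dusp6 (NCBI Gene 67603, chromosome 10, 99263231 to 99267489), a classical readout of ERK activity, had 20 and 27 counts with DMSO and 7 and 12 with risperidone. Its level was 0.460 and 0.640 FPKM against 0.160 and 0.280 FPKM. All 4 values were low, and both risperidone libraries were below both DMSO libraries. Since its mean was under 1 FPKM, the log2 fold change of Dusp6 comes from a fit without a filter and was -1.21 (standard error 0.447), a level 2.31-fold lower, ranging from -1.62 to -0.87 with 1 library left out. On the log2(FPKM + 1) and log2(TPM + 1) scales it was -0.34 and -0.58.

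Dusp7 (NCBI Gene 235584, chromosome 9, 106368560 to 106375724), the close relative of Dusp6 that is less tied to stimulation, differed little. It had 389 and 352 counts with DMSO and 381 and 390 with risperidone. The FPKM values, 7.72 and 7.20 against 7.60 and 7.91, overlapped. On TMM-scaled counts both risperidone libraries were higher, at 24.4 and 24.98 CPM against 23.1 and 21.4 CPM. The log2 fold change of Dusp7 there was 0.15 (standard error 0.0758), whereas on the scale of TPM, which is length-scaled and sums to the same total in each library, it was -0.081. The sign for Dusp7 thus depended on the scaling.

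Dusp10 and Dusp16, which like Dusp1 prefer JNK and p38, were both higher after risperidone, opposite to Dusp1. Dusp10 (NCBI Gene 63953, chromosome 1, 184034381 to 184075636), also called MKP5, had 108 and 90 counts with DMSO and 268 and 281 with risperidone. Its level was 2.67 and 2.29 FPKM against 6.64 and 7.09 FPKM, with the libraries of each treatment close together. The log2 fold change of Dusp10 was 1.57 (standard error 0.136), a level 2.96-fold higher, and stayed between 1.46 and 1.68 with 1 library left out.

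Dusp16 (NCBI Gene 70686, chromosome 6, 134715468 to 134807063), also called MKP7, which shuttles between nucleus and cytoplasm, had 455 and 411 counts with DMSO and 555 and 599 with risperidone. In FPKM this was 5.58 and 5.20 against 6.85 and 7.52. Both risperidone libraries were above both DMSO libraries, by less than for Dusp10. For Dusp16 the log2 fold change was 0.51 (standard error 0.0689), ranged from 0.45 to 0.57 with 1 library left out, and was 0.25 on the TPM scale.

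The small atypical phosphatases, which lack the kinase-binding domain of the others, split as well. Dusp3 (NCBI Gene 72349, chromosome 11, 101971141 to 101987013), known as VHR and active on ERK and JNK, was scarce, with 23 and 18 counts with DMSO and 34 and 42 with risperidone. Its FPKM values were 0.350 and 0.280 against 0.540 and 0.640, higher in both risperidone libraries. With a mean under 1 FPKM it too was fitted without a filter, and the log2 fold change of Dusp3 came to 0.98 (standard error 0.286). On the log2(FPKM + 1) and log2(TPM + 1) scales, which shrink the change of low genes, it was 0.27 and 0.36.

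Dusp14 (NCBI Gene 56405, chromosome 11, 84048033 to 84069256), also called MKP6, had 132 and 155 counts with DMSO and 103 and 121 with risperidone. The FPKM values of Dusp14 were 6.13 and 7.39 against 4.81 and 5.74. The treatments did not overlap, but the gap between them was smaller than the distance between the 2 DMSO libraries. For Dusp14 the log2 fold change was -0.26 (standard error 0.164), -0.12 without the second DMSO library, -0.15 without the first risperidone library and -0.39 without the first DMSO or the second risperidone library. On the log2(TPM + 1) scale it was -0.46.

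**Figure D2:**
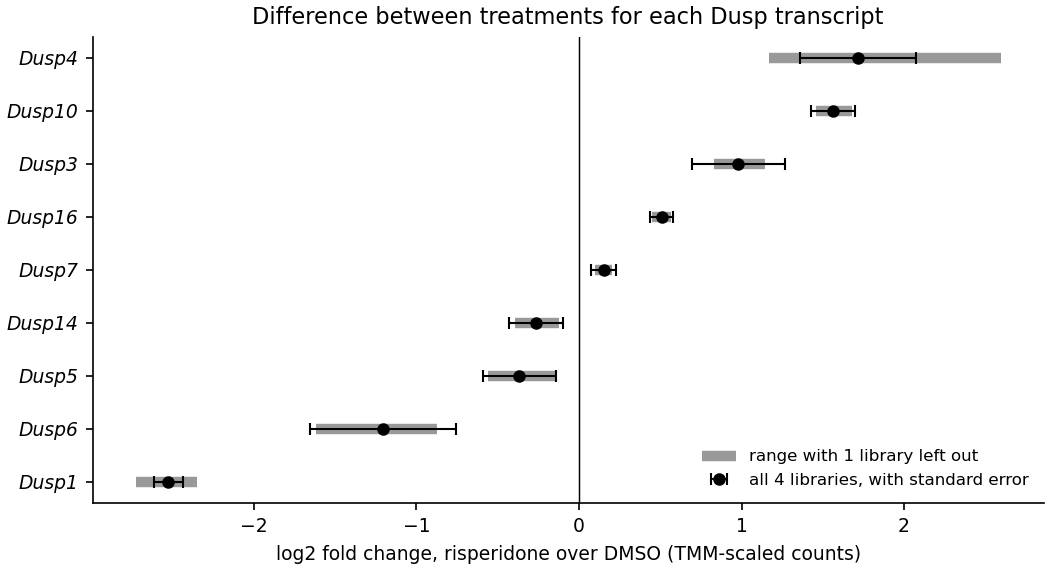
Log2 fold change of each Dusp transcript, risperidone over DMSO, from TMM-scaled counts (x axis), where points are the fit to all 4 libraries with its standard error and grey bars span the fits with 1 library left out. The bar of Dusp1 runs from -2.73 to -2.35, that of Dusp10 from 1.46 to 1.68 and that of Dusp4, the longest, from 1.17 to 2.59. On the TPM scale the sign of Dusp7 turns.

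Across the 9 genes, 7 had a mean of at least 1 FPKM and 2, Dusp3 and Dusp6, did not. In the second risperidone library the FPKM was higher than in the first for 8 of the 9 genes, all but Dusp4, and between the DMSO libraries the second was higher for 4 of the 9. With the second risperidone library left out all 9 log2 fold changes kept their sign.

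The make-up of the family differed between treatments. Summed over the 9 genes, expression was 125 and 124 TPM in the DMSO libraries and 65.55 and 76.9 TPM in the risperidone libraries. Dusp1 alone made up 53.2% and 54.1% of this sum with DMSO and 12.7% and 14.8% with risperidone. Without Dusp1 the other 8 genes summed to 58.7 and 56.8 TPM with DMSO and to 57.2 and 65.6 TPM with risperidone, ranges that overlapped. In FPKM the same 8 genes summed to 28.35 and 27.68 with DMSO and to 31.23 and 34.44 with risperidone, ranges that did not overlap. Dusp10 and Dusp16 together made up 13.6% and 12.4% of the sum with DMSO and 37.7% and 36.2% with risperidone, and their summed level was 17.1 and 15.4 TPM against 24.7 and 27.8 TPM. Dusp6 and Dusp7 together went from 13.5% and 13.0% to 21.7% and 20.3%, almost all of it Dusp7. Their summed level was 16.95 and 16.1 TPM with DMSO and 14.2 and 15.6 TPM with risperidone. In FPKM it was 8.18 and 7.84 with DMSO and 7.76 and 8.19 with risperidone, ranges that overlapped.

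**Figure D3:**
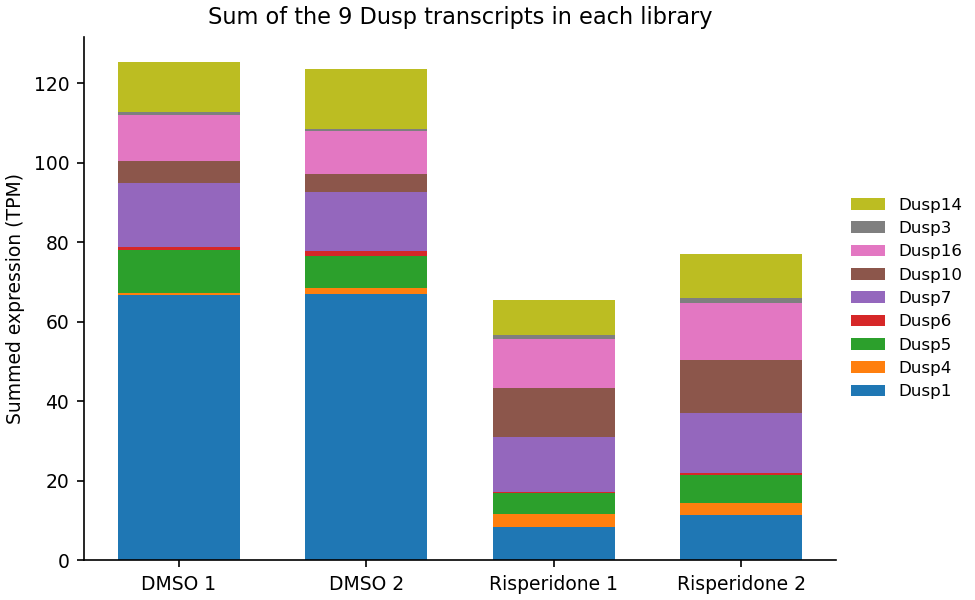
Summed TPM of the 9 Dusp transcripts (y axis) in each library, stacked by gene. The sum is 125 and 124 TPM with DMSO and 65.55 and 76.9 TPM with risperidone. The block of Dusp1 at the bottom is 66.7 and 66.9 TPM against 8.34 and 11.35 TPM. The other 8 genes sum to 58.7 and 56.8 TPM against 57.2 and 65.6 TPM.

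Ordered by mean FPKM in the DMSO libraries, Dusp1 stood first at 32.4 ± 0.283 FPKM (SD, n = 2 libraries), and 83.4% of the genes in the table were below it. Dusp7 (7.46 FPKM) and Dusp14 (6.76 FPKM) followed and overlapped each other. Dusp16 (5.39 FPKM), Dusp5 (4.51 FPKM) and Dusp10 (2.48 FPKM) came next, each separated from its neighbours in both libraries. Dusp6, Dusp4 and Dusp3 lay under 1 FPKM, and neighbours among these 3 overlapped. In the risperidone libraries the order opened with Dusp7 (7.75 FPKM), followed by Dusp16 (7.18 FPKM) and Dusp10 (6.87 FPKM), and the last 2 overlapped. Dusp14 (5.28 FPKM) and Dusp1 (5.26 ± 0.997 FPKM) came next and overlapped each other, with 51.8% of all genes now below Dusp1. Dusp5, Dusp4, Dusp3 and Dusp6 closed the order, each separated from its neighbours.

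The genes whose pattern lay nearest to that of Dusp1, by the Euclidean distance of centred log2(FPKM + 1) values over the 4 libraries, were Agt (distance 0.201), Gbp2 (0.252) and Steap4 (0.253). Agt, the gene of angiotensinogen, was at 623 and 648 FPKM with DMSO and 95.7 and 112 FPKM with risperidone, with a log2 fold change of -2.52. Gbp2 (-2.89) and Steap4 (-4.27) changed by more than Dusp1 on counts. For Dusp4 the nearest were Mcrip2 (0.0874), Adssl1 (0.107) and Mef2b (0.130), which shared the low first DMSO library. Their log2 fold changes of 0.92, 0.95 and 1.34 were smaller than the 1.72 of Dusp4. With 4 libraries, likeness of this kind is mostly the size of the difference between treatments.

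The rest of the Dusp family was compared through a list of 18 further symbols, of which 13 were in the table and 7 passed a mean of 1 FPKM. Of these 7, 2 rose, 3 fell and 2 did not pass the test, where 64.3% of all 10243 genes tested passed it, 32.1% higher and 32.2% lower. Dusp12, a zinc-binding phosphatase, rose from 12.1 and 12.2 to 20.2 and 17.9 FPKM (log2 fold change 0.74). Dusp11, which acts on RNA ends, rose from 30.2 and 30.5 to 35.3 and 34.8 FPKM (0.31), which became 0.06 and lost its call on the TPM scale. Dusp23 fell from 1.76 and 1.52 to 0.480 and 0.730 FPKM (log2 fold change -1.34). Dusp18, which is found at mitochondria, fell from 5.35 and 5.28 to 2.90 and 3.00 FPKM (-0.76), and Dusp22, an activator of JNK signalling, from 14.8 and 14.35 to 11.6 and 11.9 FPKM (-0.41). Dusp19 (-0.02) and the pseudophosphatase Styx (0.01) did not pass the test.

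Of the other canonical MAP kinase phosphatases, Dusp2 and Dusp8 had few counts, and the symbol Dusp9 was searched for and not found in the table. Dusp2, a nuclear phosphatase of immune cells, had 2 and 1 counts with DMSO and 3 and 6 with risperidone. Dusp8, which prefers JNK and p38, had 12 and 6 counts against 23 and 19. Both lay under 1 FPKM, as did Dusp15, Dusp27, Dusp28 and Styxl1, whose counts ran from 0 to 19 per library.

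The genes of the kinases that these phosphatases act on went both ways. Of 14 MAP kinase genes 8 were tested, 2 of which rose and 4 fell, or 75% beside 64.3% of all genes tested. Their median log2 fold change was -0.06 beside 0.00044 for all genes tested. On the TPM scale, where the median of all genes was -0.22, 2 were higher and 5 lower, with a median of -0.30. The count of decreases was 2 rather than 4 without the first DMSO library, without the first risperidone library, with DESeq2 and with no filter on low values. Mapk14, which encodes p38α, fell from 50.6 and 53.0 to 32.7 and 35.1 FPKM (log2 fold change -0.51), and Mapk8, which encodes JNK1, from 6.98 and 8.08 to 5.20 and 5.46 FPKM (-0.36). Mapk3, which encodes ERK1, rose from 108 and 103 to 151 and 141 FPKM (0.57), and the atypical kinase gene Mapk6 from 25.4 and 26.7 to 53.5 and 51.5 FPKM (1.11). Mapk9, which encodes JNK2, did not pass the test (0.09), except with an offset for gene length (0.18, edgeR's adjusted p = 0.00567).

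Upstream of them, 7 genes of MAP2 kinases, MAP3 kinases and their TAB partners rose and 10 fell among 26 tested, or 65.4% beside 64.3% of all genes, and on the TPM scale 4 were higher and 15 lower. The largest changes were decreases, in Map3k5 (log2 fold change -1.07), which encodes the stress-activated kinase ASK1, Map3k14 (-0.92), Map3k6 (-0.88) and Map3k11 (-0.66). Map3k5 went from 5.01 and 5.07 to 2.18 and 2.31 FPKM. Braf, a kinase that feeds ERK and was chosen after its values were seen, rose (0.56). Among 23 tested genes of Ras proteins and adaptors 8 rose and 5 fell, or 56.5% beside 64.3% of all genes. This balance turned with the scaling, to 7 higher and 10 lower with library size alone and to 2 higher and 13 lower on the TPM scale. Mapk8ip3, a scaffold of the JNK pathway, rose from 33.8 and 33.9 to 72.3 and 68.7 FPKM (1.16) and Rasal2 rose too (0.61, a call lost on the TPM scale at 0.30), while Rasa2 (-0.72) and the JNK scaffold Mapk8ip1 (-0.54) fell.

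Of 9 tested kinases that MAP kinases activate, 4 rose, among them Mknk1 (log2 fold change 0.58), Mapkapk5 (0.50) and Rps6ka1 (0.36), and 2 fell, among them Mapkapk2 (-0.34), the main effector of p38. The call of Rps6ka1 was lost in 7 of 13 alternatives. The 6 that passed were 66.7% of the 9, beside 64.3% of all genes, and on the TPM scale 2 were higher and 5 lower. Without the second risperidone library, which held the kidney transcripts, 3 were higher and 4 lower. Other phosphatases that can act on MAP kinases numbered 9 among the genes tested, of which 3 rose and 1 fell, or 44.4% beside 64.3% of all genes. On the TPM scale 0 were higher and 5 lower by limma. Ppm1a (0.35) and Ppm1b (0.30), which dephosphorylate p38 and JNK, rose, but on the TPM scale their values were 0.12 and 0.11 and both calls were lost. Ptpn1 fell (-0.35). Ppp2r2a (0.12) passed the test but lost its call in 12 of 14 alternatives and turned to -0.10 on the TPM scale.

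Genes that restrain Ras and ERK, and genes that these kinases induce, went both ways. Of 9 tested feedback inhibitors 4 rose and 3 fell, or 77.8% beside 64.3% of all genes, with a median log2 fold change of 0.20. On the TPM scale 3 were higher and 4 lower, with a median of -0.061. Rasa4, a Ras GTPase activator, rose from 5.88 and 5.85 to 15.5 and 16.5 FPKM (1.53), Spred2 from 2.73 and 2.08 to 4.06 and 3.69 FPKM (0.92) and Errfi1 from 81.3 and 86.7 to 163 and 133 FPKM (0.91). Spry3 fell from 3.05 and 3.21 to 1.33 and 1.60 FPKM (-0.999). Spry4, an inhibitor that like Dusp6 follows ERK activity and was chosen after its values were seen, lay under 1 FPKM with 29 and 39 counts with DMSO and 9 and 10 with risperidone. Its relative Spry1, whose mean over the 4 libraries was also under 1 FPKM, had 23 and 24 counts with DMSO and 49 and 44 with risperidone.

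Of 28 tested immediate early genes and ERK targets, 15 rose and 7 fell, with a median of 0.27. Cyr61 and Ctgf, matricellular genes of the serum response, rose most (log2 fold changes 2.16 and 1.81), and Myc rose from 6.07 and 6.23 to 17.9 and 14 FPKM (1.47). Egr1, an ERK-induced transcription factor gene, fell from 10.5 and 10.05 to 2.95 and 3.42 FPKM (-1.60). Of the Ier genes, chosen after their values were seen, Ier2 (-1.42) and Ier3 (-1.31) fell with it and Ier5 (0.32) rose. The 22 that passed were 78.6% of the 28 tested, beside 64.3% of all genes tested. On the TPM scale 12 were higher and 11 lower, with a median of 0.036.

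Glucocorticoids and cAMP are known inducers of Dusp1, and genes of both responses were counted beside it. Of 18 tested glucocorticoid-responsive genes 8 rose and 9 fell, or 94.4% beside 64.3% of all genes, with a median log2 fold change of -0.03. With TPM scaling 5 were higher and 10 lower. Ddit4 fell from 97.9 and 95.8 to 22.4 and 25.1 FPKM (-1.93), and Lcn2 (-1.47) and the metallothionein gene Mt1 (-1.14) fell too, while Gadd45b rose from 14.5 and 15.2 to 37.4 and 28.9 FPKM (1.26). The receptor gene Nr3c1, chosen after its values were seen, fell (-0.42). Klf9 (0.70), Sgk1 (0.63), Per1 (0.40) and Tsc22d3 (0.33) of the same list, chosen in the same way, rose. Of 15 tested genes of the CREB response 5 rose and 5 fell, or 66.7% beside 64.3% of all genes, with a median of -0.05. With TPM scaling 2 were higher and 7 lower. Pde4b (-0.81) and Cited2 (-0.53) fell beside Egr1, which is on this list too, and the orphan receptor gene Nr4a1 rose (0.95), a call lost without the first risperidone library (0.65, edgeR's adjusted p = 0.052).

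**Figure D4:**
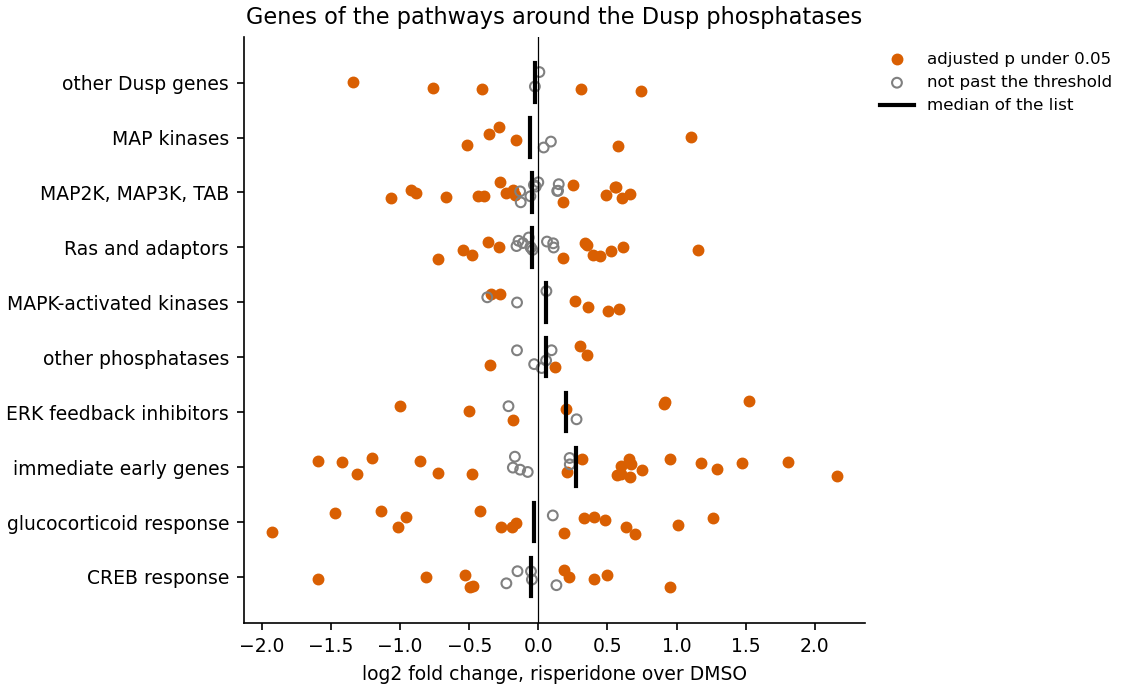
Log2 fold changes, risperidone over DMSO (x axis), of the tested genes of 10 lists around the Dusp phosphatases, with filled points for genes past edgeR's threshold, open points for the rest and a black bar at the median of each list. Every list holds changes in both directions and the medians lie between -0.06 and 0.27 with TMM scaling, while on the TPM scale the other phosphatases hold 0 increases past the threshold.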

How the data were processed

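mRNA sequencing of differentiated 3T3-L1 cells was analysed in 2 control and 2 risperidone libraries, grouped by the treatment label. Per the authors' methods, raw reads were trimmed of adaptors and filtered for quality and poly-N runs, and FPKM values were calculated by the authors on the DC.TOM platform. The submitters' processing notes name Bowtie2, RSEM, DESeq2 and GRCm38.p6, without versions. The expected counts (estimated counts), of which 91.2% to 91.7% per library are whole, and the TPM values, which sum to about the same total in each library, are as deposited by the authors. The extraction label names retina and the tissue label embryo, whereas the methods describe differentiated 3T3-L1 cells, which was followed here. The deposited means over 2 libraries were not used.

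Counts were rounded and compared in R 4.3.3 with edgeR 4.0.16 (TMM scaling, quasi-likelihood F-test, two-sided, Benjamini-Hochberg adjustment over 10243 genes whose mean reached 1 FPKM, threshold 0.05). Standard errors are the log2 fold change over the square root of F. Replicates are pooled cultures, so p-values measure the spread between pools only. Alternatives were no filter, a mean of at least 5 FPKM, RLE factors, library size alone, an offset for gene length, DESeq2 1.42.0, a replicate block and each library left out. Further ones were limma 3.58.1 on log2 FPKM with a pseudocount of 1 or 0.1, and on log2 TPM with a pseudocount of 1. Tried on simulated data were edgeR with TMM and RLE factors, the length offset, the replicate block and 1 library left out. DESeq2 and limma on log2(FPKM + 1) were tried there too, and the other alternatives were not. The phosphatases and the gene lists, written from general knowledge, were chosen with earlier results of these data known. Named genes were all members, the other Dusp genes, 5 MAP kinases, up to 4 changed genes per list with the largest changes, and the 3 genes nearest to the member with the largest decrease and to that with the largest increase. Some genes that this rule names are not reported here. Lists of adipocyte, preadipocyte, kidney, retina and macrophage markers were counted. Figures were drawn with matplotlib 3.10.9 in Python 3.11.15.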

Additional observations from a re-analysis of the deposited data

How the results depend on the processing

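Of 172 counts recomputed under alternatives for 12 results, each the total of both directions, 170 stayed within 1.5 times the main value. With a mean of at least 5 FPKM the other Dusp genes that passed the test went from 5 to 3 and the immediate early genes from 22 to 14, since fewer genes were tested. The split by direction moved more than the totals. Ras proteins and adaptors, for example, went from 8 higher and 5 lower to 2 higher and 13 lower on the TPM scale. For the 9 phosphatases 20 of 119 recomputed log2 fold changes moved by more than the replicate spread and 1 turned. On the TPM scale Dusp7 turned to -0.081 and Ppp2r2a to -0.10 (log2 fold change). TPM scaling moved the median of all genes to -0.22, and the share of called genes that were higher was 22.5% there, 37.9% with library size alone and 37.8% with limma on log2(FPKM + 1), against 49.9% with TMM. Leaving out 1 library left between 5391 and 6660 genes past the threshold, against 6590. The replicate numbers of the 2 treatments were not shown to pair the libraries, as the replicate differences correlated at -0.105 across genes. With the replicate block 6613 genes passed, and with the crossed pairing, added after the data were seen, 6993. Dusp4, Dusp3 and Dusp6 rest on 7 to 65 counts per library.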

Other observations

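Further marker lists were counted in the same libraries. Of 7 retina markers 4 were in the table and 0 reached a mean of 1 FPKM. Crx, a photoreceptor transcription factor gene, had 1 and 2 counts with DMSO and 41 and 35 with risperidone. Of 5 macrophage markers 4 were in the table and only Cd68, a lysosomal protein gene, was tested. Cd68 had 48 and 62 counts with DMSO and 115 and 120 with risperidone and rose (log2 fold change 1.19), while Ptprc, which all leukocytes express, had between 0 and 3 counts. The 13 kidney markers summed to 90 and 84 counts with DMSO and to 75 and 3720 counts with risperidone, so that they were high in the second risperidone library and not in the first. Kap, a gene of the proximal tubule, had 13 and 8 counts with DMSO and 16 and 1048 with risperidone.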
